A study of Mus musculus with 35 samples.

Results

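The mRNA levels of 9 subunits of the Polycomb repressive complexes were followed in developing mouse microglia. They were Ezh2, Ezh1, Suz12 and Eed of Polycomb repressive complex 2 (PRC2) and Cbx2, Cbx7, Phc1, Bmi1 and Ring1 of Polycomb repressive complex 1 (PRC1). These 9 genes were taken by symbol from a count table of 55401 gene identifiers, and all 9 were among the 17612 genes that passed the filter on low counts (CPM, counts scaled to a common library size, of 0.5 or more in 5 mice or more). The comparisons of interest were Ezh2 against Ezh1 and Cbx2 against Cbx7 over postnatal age. The genes were picked in part because Cbx7 rose and Phc1 fell with maturation, so every difference between ages of these 9 genes is given as a description, without a test.

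Microglia were captured from whole brains of wild-type C57BL/6 mice of both sexes, untreated, by immunopanning on an antibody against CD45, a surface protein of leukocytes. Meninges were removed before the brains were dissociated. Each mouse gave 1 mRNA library. The ages were postnatal day 6 (P6; 4 females and 6 males), postnatal day 15 (P15; 6 females and 6 males) and 8 weeks (6 females and 6 males), 34 mice in all. The authors removed a mouse as an outlier. P6 female 6 is not among the 34 mice whose values they listed, and it enters here as an alternative alone. CD45 is shared by other leukocytes, and the bound cells were not sorted further.

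PRC2 places the histone mark H3K27me3, which labels silenced developmental genes. EZH2 and EZH1 are its alternative catalytic subunits, and EED and SUZ12 are the core partners that the catalytic subunit needs. EZH2 is typical of dividing and EZH1 of resting cells. Canonical PRC1 reads that mark through a chromobox (CBX) protein, compacts chromatin through a polyhomeotic (PHC) protein and carries the RING1 or RNF2 ubiquitin ligase with BMI1 or PCGF2. CBX7 and CBX2 are alternative readers that differ between cell types and stages.

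Between 23316107 and 38965078 fragments were counted per mouse, and the lowest count of any of the 9 genes in any of the 34 mice was 58. That count belonged to Cbx2 at 8 weeks, the member for which counting error weighed most. Microglial markers were present in every mouse, with a summed level of 6 genes between 5597 and 10063 CPM at P6, 12153 and 23881 CPM at P15, and 15833 and 22512 CPM at 8 weeks. None of the 6 was at 0 in any age group. Markers of other cells moved with age as well. The summed level of 14 dividing-cell genes was 1631 to 2104 CPM at P6, 379 to 510 CPM at P15 and 220 to 300 CPM at 8 weeks, and all 14 fell from P6 to 8 weeks (FDR below 0.05, edgeR). The summed level of 15 neuronal and neural progenitor genes was 968 to 2902 CPM at P6, 214 to 1538 CPM at P15 and 138 to 409 CPM at 8 weeks, and over that interval 4 of the 6 neuronal genes fell and 1 rose, and 9 of the 9 neural progenitor genes fell. Of the other cell types, 7 of 9 neutrophil and lymphocyte genes rose and 0 fell from P6 to 8 weeks, with a summed level of 20.8 to 72.4 CPM at P6, 19.8 to 112 CPM at P15 and 38.6 to 230 CPM at 8 weeks. Monocyte and macrophage genes had 2 of 9 higher and 4 lower (724 to 1577, 289 to 1031 and 366 to 719 CPM), astrocyte genes 3 of 5 higher and 1 lower (329 to 862, 397 to 2625 and 837 to 2454 CPM), oligodendrocyte lineage genes 2 of 5 higher and 3 lower (233 to 595, 728 to 2804 and 297 to 1555 CPM) and endothelial genes 2 of 4 higher and 0 lower (36.2 to 95.1, 69.5 to 187 and 93.9 to 232 CPM). The oligodendrocyte level was thus highest at P15, with a median of 1253 CPM against 409 CPM at P6 and 448 CPM at 8 weeks. No gene of these lists was at 0 in every mouse. Their part in the changes of the Polycomb genes between ages was not tested. In bulk libraries, fewer cells of a type and less RNA per cell cannot be told apart. Mouse P15 male 1 stood apart in several subunits, and values without it are given beside the results it moved.

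Promoter windows are shown for the catalytic pair Ezh2 and Ezh1, which moved in opposite directions, for Cbx7, which had the largest rise of the 9, and for Suz12, whose window held a match. Each is the 250 bases before the RefSeq transcript start on GRCm38.p6, written 5′ to 3′ on the strand of the gene, with matches to a word bound by E2F factors, regulators of S-phase genes, in capitals.
Ezh2, chr6:47595031-47595280, minus strand: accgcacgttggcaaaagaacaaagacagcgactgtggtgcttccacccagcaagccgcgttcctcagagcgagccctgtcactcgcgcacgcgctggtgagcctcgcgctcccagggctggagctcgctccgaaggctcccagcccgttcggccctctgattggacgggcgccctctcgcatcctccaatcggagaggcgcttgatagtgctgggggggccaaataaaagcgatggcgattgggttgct
Ezh1, chr11:101226464-101226713, minus strand: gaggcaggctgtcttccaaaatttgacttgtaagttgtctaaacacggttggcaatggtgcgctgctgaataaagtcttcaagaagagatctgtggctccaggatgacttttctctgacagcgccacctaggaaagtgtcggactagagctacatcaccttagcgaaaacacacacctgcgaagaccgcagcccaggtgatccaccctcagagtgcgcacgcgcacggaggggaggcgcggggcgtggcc
Cbx7, chr15:79932647-79932896, minus strand: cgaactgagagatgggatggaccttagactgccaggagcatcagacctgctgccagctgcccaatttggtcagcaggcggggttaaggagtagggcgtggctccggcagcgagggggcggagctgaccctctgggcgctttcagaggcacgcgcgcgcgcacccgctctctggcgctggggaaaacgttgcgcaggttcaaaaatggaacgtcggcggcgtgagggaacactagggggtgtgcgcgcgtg
Suz12, chr11:79992856-79993105, plus strand: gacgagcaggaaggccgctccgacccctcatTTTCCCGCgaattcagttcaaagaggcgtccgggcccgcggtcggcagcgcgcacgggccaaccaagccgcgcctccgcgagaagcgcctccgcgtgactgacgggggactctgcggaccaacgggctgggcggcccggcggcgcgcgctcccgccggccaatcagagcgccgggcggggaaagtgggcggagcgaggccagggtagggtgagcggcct
A stretch of 26 bases across the start of Ezh2, chr6:47595011-47595036 on the minus strand, is shown because it holds the other match.
Ezh2 start: gttgctgcgTTTGGCGCtcggtccgg

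The words searched on both strands were TTTCCCGC, TTTCGCGC, TTTGCCGC and TTTGGCGC, the letter variants of the E2F consensus. Suz12 held TTTCCCGC on its own strand, with the first base 219 bases before the start. Ezh2 held TTTGGCGC on its own strand, from base 4 after the start. In windows of 300 bases (250 before and 50 after the start), 2 of the 8 members with an entry held a word, against 2.26% of the 32851 windows of all genes. Ezh1, Eed, Cbx7, Phc1, Bmi1 and Ring1 held none of the words in these windows. The Ezh2 window held 23 CpG dinucleotides, the Ezh1 window 14, the Cbx7 window 23 and the Suz12 window 37. Ring1 had 30, Bmi1 21, Eed 12 and Phc1 8, against a median of 6 over all windows. Each word searched holds a CpG, so the windows of all genes are an unlike background, and nothing follows from 2 genes set beside it. Cbx2 was not in the promoter table. The RefSeq start of Cbx7 lies inside the gene as drawn by GENCODE, which begins farther upstream, and the same holds for Ezh2.

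Ezh2, the catalytic subunit of PRC2 in dividing cells, fell steeply. Its level was 52.6 to 85.5 CPM (median 60.4) over the 10 mice at P6, 9.89 to 26.2 CPM (median 15.6) over the 12 mice at P15 and 4.88 to 9.50 CPM (median 7.61) over the 12 mice at 8 weeks. The 3 ages did not overlap. The fitted log2FC was −3.04 ± 0.12 (SE) from P6 to 8 weeks, 8.23-fold lower, with −1.93 ± 0.12 by P15 and −1.11 ± 0.11 afterwards.

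Ezh1, the catalytic subunit with weaker methyltransferase activity, rose. It lay at 25.2 to 34.7 CPM (median 28.5) at P6, 42.4 to 76.9 CPM (median 52.8) at P15 and 65.7 to 81.0 CPM (median 72.2) at 8 weeks. P6 mice were below all others, and P15 and 8-week mice overlapped. The log2FC from P6 to 8 weeks was 1.32 ± 0.08 (SE), 2.5-fold higher, with 0.90 ± 0.08 gained by P15 and 0.42 ± 0.07 afterwards.

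Of the core partners, Suz12 was lower at 8 weeks than at P6 and Eed higher, by less than Ezh2 and Ezh1 and with overlap between the ages. Suz12, which stabilises the complex, ranged from 59.6 to 109 CPM (median 76.4) at P6, from 15.5 to 68.1 CPM (median 44.2) at P15 and from 26.2 to 71.0 CPM (median 57.3) at 8 weeks. Eed, which binds the mark and stimulates the enzyme, ranged from 22.7 to 30.0 CPM (median 26.3), 13.4 to 39.2 CPM (median 35.1) and 27.1 to 50.3 CPM (median 43.3) at the same ages. Each pair of ages overlapped for both genes. From P6 to 8 weeks the log2FC was −0.53 ± 0.16 (SE) for Suz12 and 0.68 ± 0.12 for Eed. The lowest P15 value of both came from P15 male 1, and the next lowest in P15 mice were 38.3 CPM for Suz12 and 29.0 CPM for Eed. Without that mouse the change of Suz12 from P6 to P15 was −0.62 and that of Eed was 0.41 on the log2 scale, against −0.69 ± 0.16 and 0.34 ± 0.12 with it.

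**Figure D1:**
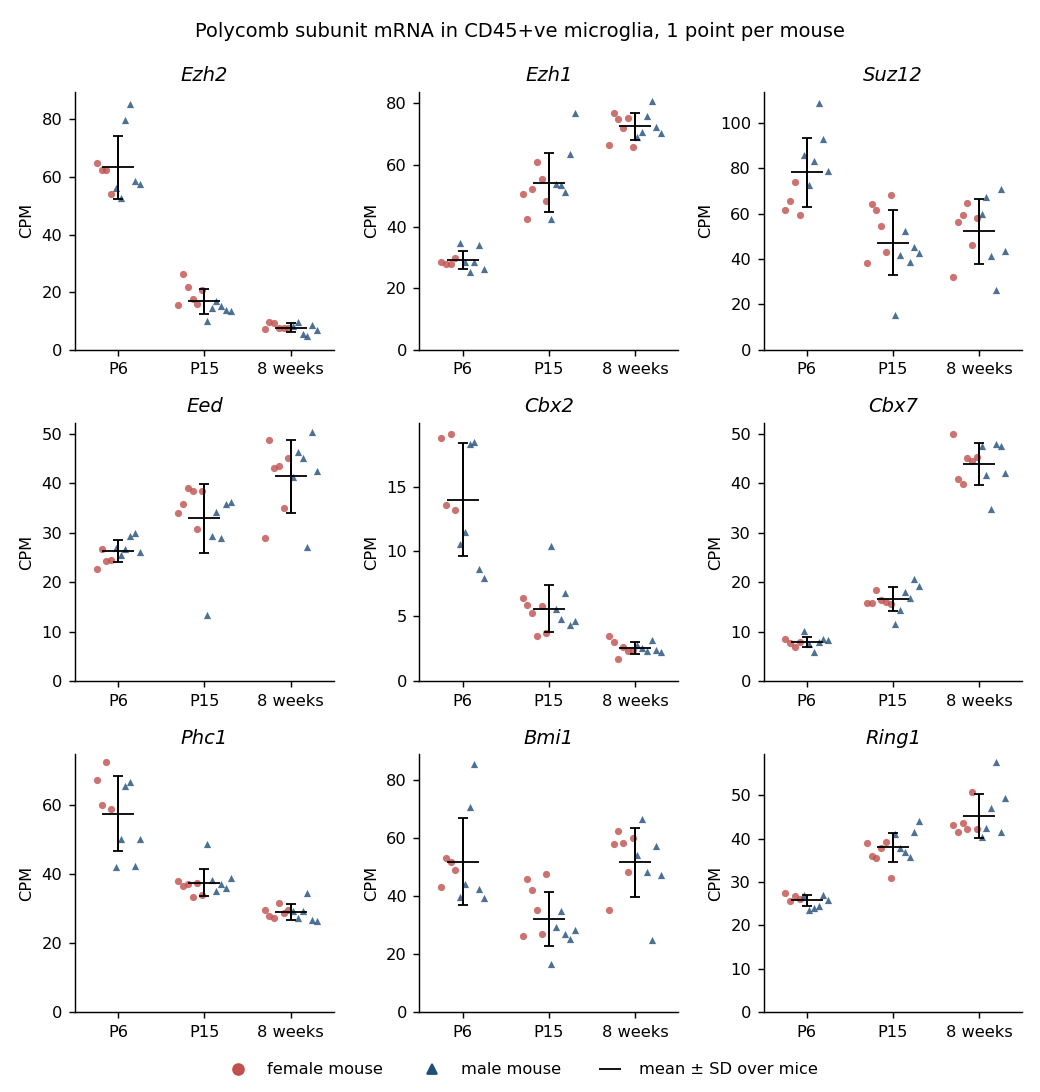
Level in CPM (y axis, linear from 0, scaled per panel) of the 9 subunits at P6, P15 and 8 weeks (x axis) in 34 mice. Circles are females, triangles males, and the bar and whiskers the mean ± SD of 10, 12 and 12 mice. Ezh2 and Cbx2 step down and Ezh1, Cbx7 and Ring1 step up, while Suz12, Eed and Bmi1 overlap between P6 and 8 weeks.

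Cbx7, a chromobox reader of the PRC2 mark, had the largest rise. Its values were 5.91 to 10.2 CPM (median 7.82) at P6, 11.5 to 20.7 CPM (median 16.2) at P15 and 34.8 to 49.98 CPM (median 44.8) at 8 weeks, with no overlap between any pair of ages. The log2FC was 2.49 ± 0.10 (SE) from P6 to 8 weeks, 5.60-fold higher. Its rise after P15, 1.41 ± 0.08, was larger than its rise before P15, 1.08 ± 0.09, the reverse of Ezh1.

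Cbx2, the alternative reader that also compacts chromatin, fell. It was measured at 7.98 to 19.0 CPM (median 13.4) at P6, 3.43 to 10.4 CPM (median 5.41) at P15 and 1.72 to 3.43 CPM (median 2.46) at 8 weeks. All 8-week mice were below all P15 mice by a narrow margin, 3.431 against 3.433 CPM, and P15 overlapped P6 through P15 male 1 alone, whose 10.4 CPM stood above the next P15 value of 6.75 CPM. The log2FC from P6 to 8 weeks was −2.47 ± 0.17 (SE), 5.53-fold lower.

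Phc1, a polyhomeotic subunit that joins PRC1 complexes to each other, fell by less. It went from 42.1 to 72.4 CPM (median 59.5) at P6 through 33.5 to 48.7 CPM (median 37.1) at P15 to 26.3 to 34.6 CPM (median 28.9) at 8 weeks, and P6 and 8-week mice did not overlap. The fitted log2FC over the whole interval was −1.01 ± 0.08 (SE). Ring1, a ubiquitin ligase for histone H2A, rose from 23.6 to 27.6 CPM (median 25.9) through 31.0 to 44.1 CPM (median 37.8) to 40.5 to 57.8 CPM (median 42.8), a log2FC of 0.80 ± 0.06. Its P6 mice were below every older mouse.

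Bmi1, the partner of the ligase that is known for repressing the Cdkn2a locus, was lowest at P15. Its range was 39.3 to 85.2 CPM (median 46.5) at P6, 16.6 to 47.5 CPM (median 28.7) at P15 and 24.8 to 66.3 CPM (median 55.7) at 8 weeks. All ages overlapped. The log2FC was −0.70 ± 0.16 (SE) from P6 to P15, 0.71 ± 0.15 from P15 to 8 weeks and 0.01 ± 0.16 from P6 to 8 weeks. The sign of the last value changed with the scaling. It was also negative whichever P6 female was left out (−0.031 to −0.014).

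Between P6 and 8 weeks, 3 of the 9 subunits (Ezh1, Cbx7 and Ring1) had every older mouse above every younger one and 3 (Ezh2, Cbx2 and Phc1) every older mouse below, beside 14.8% and 14.8% of all genes tested. Between P6 and P15, Ezh1, Cbx7 and Ring1 were above without overlap and Ezh2 below, beside 5.25% and 7.72% of all genes. Between P15 and 8 weeks, Cbx7 was above and Ezh2 and Cbx2 below, beside 1.65% and 1.72%. Nothing follows from these shares for genes picked with their course in view. Over 16 fits that differed in mice, scaling, filter, design or tool, the log2FC from P6 to 8 weeks lay between −3.18 and −3.00 for Ezh2, 1.18 and 1.33 for Ezh1, −2.62 and −2.43 for Cbx2 and 2.35 and 2.51 for Cbx7.

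The paralogs of each pair were compared within a mouse, as the ratio of counts per kilobase of exon, which needs no scaling between libraries. The log2 ratio of Ezh2 to Ezh1 was 0.85 to 1.82 at P6 (1.27 ± 0.32, SD, n = 10), −2.34 to −0.53 at P15 (−1.56 ± 0.48, n = 12) and −3.89 to −2.75 at 8 weeks (−3.11 ± 0.34, n = 12). Ezh2 was the higher of the pair in 10 of 10 mice at P6, 0 of 12 at P15 and 0 of 12 at 8 weeks. It made up 70.4% ± 4.53 of the pair at P6, 25.7% ± 6.57 at P15 and 10.5% ± 1.96 at 8 weeks. The mean ratio changed 20.8-fold from P6 to 8 weeks, and 7.10-fold of this came before P15.

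For Cbx2 to Cbx7 the log2 ratio was 0.57 to 2.23 at P6 (1.38 ± 0.61, SD, n = 10), −1.65 to 0.46 at P15 (−1.01 ± 0.59, n = 12) and −3.91 to −3.15 at 8 weeks (−3.49 ± 0.22, n = 12). Cbx2 was the higher in 10 of 10 mice at P6, 1 of 12 at P15 and 0 of 12 at 8 weeks. The exception at P15 was male 1 at 0.46, and the P15 mean without it was −1.14. The share of Cbx2 in the pair was 71.6% ± 8.45, 33.7% ± 9.32 and 8.22% ± 1.14 at the 3 ages. Its mean ratio changed 29.3-fold over the whole interval, 5.23-fold before P15 and 5.61-fold after, whereas the catalytic pair changed 7.10-fold before and 2.93-fold after. By counts per kilobase of exon, the mean of both pairs crossed equality between P6 and P15. Which gene of a pair is the higher depends on the gene lengths used, and the changes between ages do not. Before division by length, Cbx2 (7.98 to 19.0 CPM) and Cbx7 (5.91 to 10.2 CPM) overlapped at P6.

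**Figure D2:**
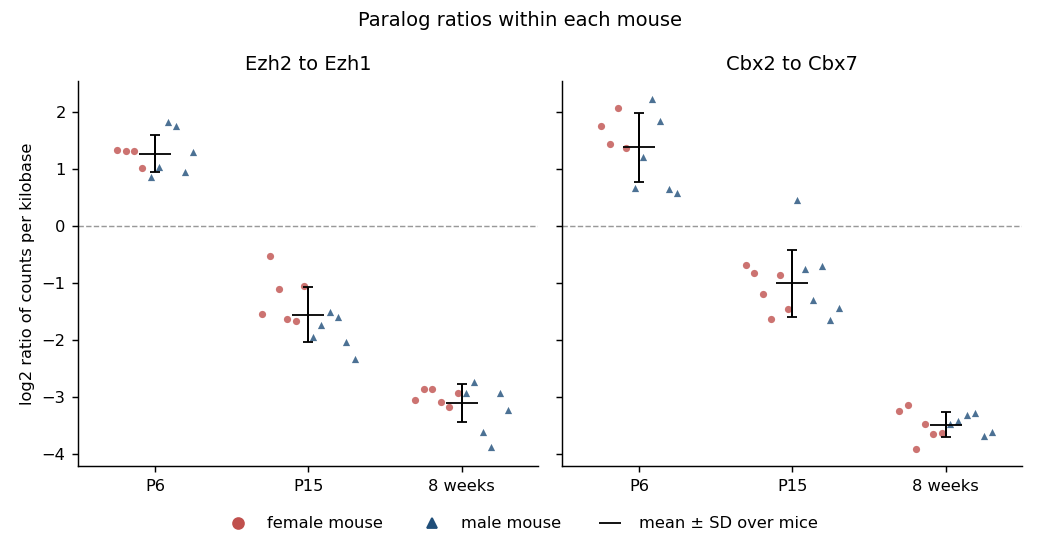
Log2 ratio of counts per kilobase (y axis) of Ezh2 to Ezh1 (left) and Cbx2 to Cbx7 (right) at P6, P15 and 8 weeks (x axis). Each point is 1 of 34 mice, with circles for females and triangles for males, bar and whiskers give mean ± SD, and the dashed line marks equal levels. All P6 mice lie above it and all 8-week mice below it, and P15 male 1 is the 1 mouse above it at P15.

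Levels between genes were compared per kilobase of exon, as RPKM. At P6 the order by mean was Suz12 (15.8 RPKM), Bmi1 (13.02), Phc1 (10.9), Ezh2 (9.48), Ring1 (7.95), Eed (6.85), Ezh1 (3.91), Cbx2 (3.29) and Cbx7 (1.22). Neighbours were apart by more than their SDs between Ring1 and Eed, Eed and Ezh1, and Cbx2 and Cbx7, and the others overlapped. At P15 it was Ring1 (11.7 RPKM), Suz12 (9.56), Eed (8.60), Bmi1 (8.06), Ezh1 (7.30), Phc1 (7.09), Cbx7 (2.55), Ezh2 (2.51) and Cbx2 (1.31), with gaps beyond the SDs between Phc1 and Cbx7 and between Ezh2 and Cbx2. At 8 weeks it was Ring1 (13.9 RPKM), Bmi1 (12.99), Eed (10.8), Suz12 (10.6), Ezh1 (9.75), Cbx7 (6.78), Phc1 (5.49), Ezh2 (1.14) and Cbx2 (0.604), and each step from Ezh1 downwards was beyond the SDs. By mean, Ezh2 therefore moved from place 4 to place 8, and Cbx7 from place 9 to place 6. At P6 Ezh2 overlapped both its neighbours, and the order rests on the union of exons as gene length.

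The rest of the Polycomb system was examined with 43 further genes that passed the filter, of 44 listed. From P6 to 8 weeks 11 rose, 21 fell and 11 did not pass (FDR below 0.05, edgeR quasi-likelihood test over 17612 genes), against 37.8% of all genes that rose and 36.6% that fell. Their median log2FC was −0.17, against 0.04 over all genes. Past a 2-fold threshold 1 rose and 6 fell, beside 11.5% and 12.4% of all genes. From P6 to P15, 8 rose and 19 fell, beside 30.4% and 31.4% of all genes, and from P15 to 8 weeks 11 rose and 16 fell, beside 24% and 23.9%. The 11 became 7 without the filter and 7 with age fitted without sex. None of the genes called changed sign when library sizes were scaled without TMM, which moved the median of all genes from 0.04 to −0.10.

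Of the other PRC2 genes, 1 of 9 tested rose and 5 fell from P6 to 8 weeks, with a median log2FC of −0.37. Phf1 and Phf19 encode Polycomb-like proteins that link PRC2 to chromatin, and they went in opposite directions. Phf1 rose from 23.5 to 31.3 CPM at P6 (median 25.9) to 88.8 to 118 CPM at 8 weeks (median 94.7), a log2FC of 1.90 ± 0.08 (SE, FDR 6.7e-20). Phf19 fell from 8.30 to 14.0 CPM (median 11.2) to 0.649 to 2.498 CPM (median 1.61), a log2FC of −2.89 ± 0.17 (FDR 5.0e-16). Both were also past the 2-fold threshold, and neither had overlapping ages between P6 and 8 weeks. The histone-binding subunits Rbbp4 and Rbbp7, which PRC2 shares with other chromatin complexes, fell by 0.94 and 1.08 on the log2 scale. Jarid2, which recruits PRC2, fell by 0.37 (FDR 0.0038), and Epop, an accessory subunit, fell by 0.79 (FDR 4.0e-07). Aebp2, Mtf2 and Lcor did not pass, with log2FC of −0.02, 0.04 and 0.31. Ezhip was below the filter on low counts.

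In canonical PRC1, 3 of the other 10 genes rose and 6 fell, with a median log2FC of −0.31. Pcgf2, the alternative to Bmi1 beside the ligase, fell from 14.3 to 29.8 CPM at P6 (median 27.3) to 3.23 to 4.94 CPM at 8 weeks (median 3.75). Its log2FC of −2.65 ± 0.14 (SE, FDR 5.3e-17) stood beside the 0.01 ± 0.16 of Bmi1. Rnf2, the alternative to Ring1, fell by 0.49 (FDR 0.0043) over the interval in which Ring1 had a log2FC of 0.80. Of the polyhomeotic genes, Phc2 fell by 0.26 (FDR 0.0085) and Phc3 had a log2FC of 0.99 ± 0.17 (FDR 7.1e-06), beside −1.01 ± 0.08 for Phc1. The chromobox reader Cbx8 rose by a log2FC of 0.55 ± 0.13 (FDR 0.00045), less than the 2.49 of Cbx7. Cbx6 did not pass from P6 to 8 weeks (0.17 ± 0.11, FDR 0.17), although it was higher at P15 than at either other age. Cbx6 shares exons with Npcd on the same strand, so its reads cannot be fully separated. The sex comb genes Scml2 and Scml4 fell by 3.65 and 1.56 from low levels, and Scml2 was down to a median of 0.128 CPM at 8 weeks.

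Variant PRC1, which lacks a chromobox reader, showed 3 genes that rose and 7 that fell of 16, with a median log2FC of −0.15. Its PCGF subunits split. Pcgf1 and Pcgf5 rose by log2FC of 0.66 ± 0.09 (SE, FDR 1.7e-07) and 0.39 ± 0.12 (FDR 0.0060), while Pcgf3 and Pcgf6 fell by 0.41 and 0.47 (FDR 3.0e-05 and 0.0011). Auts2, a subunit known for activating genes in neurons, fell by 2.90 and was the 1 gene of this list past the 2-fold threshold (FDR 3.1e-08). Its P6 values spread from 21.2 to 76.9 CPM. E2f6, a repressive E2F factor, fell by 0.84, and Mga, its partner in the same complex, rose by 0.67 ± 0.20.

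Of 8 genes for enzymes that remove Polycomb marks and their partners, 4 were higher and 3 lower, with a median log2FC of 0.17. Over all genes tested, 37.8% were higher and 36.6% lower. Kdm6a and Kdm6b demethylate H3K27me3, and the former rose by 0.76 ± 0.15 (SE, FDR 5.2e-05) while the latter fell by 0.70 (FDR 0.00057). Among the H2A deubiquitinases and their partners, Mysm1 rose by 0.88 ± 0.21 and Asxl2 by 0.76 ± 0.16. Asxl3, a neuronal paralog of Asxl1 and Asxl2, fell by 4.84 from a median of 9.19 to a median of 0.387 CPM, the largest change of the 43 genes. The levels of the neural marker genes fell over the same interval, and their part in the falls of Asxl3 and Auts2 was not tested.

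**Figure D3:**
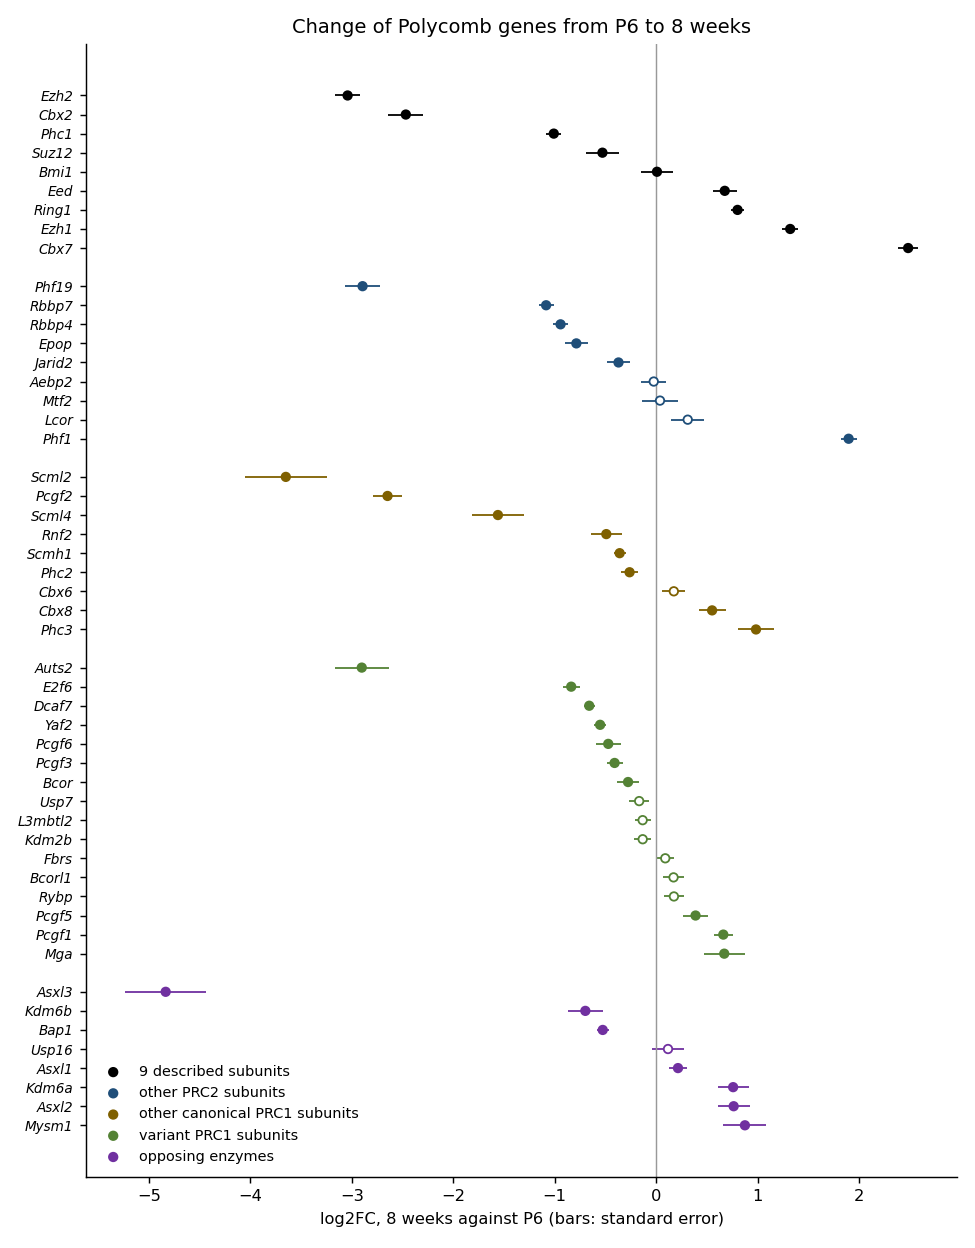
Log2FC from P6 to 8 weeks (x axis) of Polycomb genes (y axis, grouped by complex), with standard errors. Filled points of the other genes passed an FDR of 0.05 and open points did not, and the 9 described subunits (black) are drawn filled without a test. Phf19, Pcgf2, Scml2, Auts2 and Asxl3 lie with Ezh2 and Cbx2 on the far left, and Phf1 lies between Ezh1 and Cbx7 on the right.

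Lists outside Polycomb gave a comparison. Of 10 trithorax group genes, which encode the COMPASS complexes that methylate H3K4 and oppose Polycomb, 5 rose and 4 fell from P6 to 8 weeks. This stands beside 37.8% and 36.6% of all genes tested. The median log2FC of the list was 0.13. The largest changes there were −1.004 for Dpy30, 0.95 for Kmt2c and −0.80 for Ash2l. All 3 chromobox genes of the HP1 family, which read H3K9 methylation and not the PRC2 mark, fell, by 0.66 for Cbx1, 1.20 for Cbx3 and 1.86 for Cbx5, so that the Cbx genes as a family had members in both directions. Cbx5 was past the 2-fold threshold (FDR 2.1e-08). The 14 dividing-cell genes all fell past the 2-fold threshold, among them Ccnb1 by 6.27 and Pcna by 1.17, with a median log2FC of −4.33.

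Classical Polycomb targets were at low levels. Of 39 Hox genes, 19 had 3 counts or fewer in every mouse, a level of 0.0770 to 0.129 CPM, and 2 passed the filter. Hoxb4, a homeobox factor of blood progenitors, rose from 0.728 to 1.67 CPM at P6 (median 1.35) to 2.54 to 5.49 CPM at 8 weeks (median 3.52), with a log2FC of 1.53 ± 0.20 (SE, FDR 4.0e-08). Hoxb3 was near the filter (log2FC 1.01 ± 0.45, FDR 0.042). Cdkn2a, the cell-cycle inhibitor locus that Bmi1 and Cbx7 are known to repress, fell from 1.38 to 2.85 CPM (median 1.84) at P6 through a median of 0.901 CPM at P15 to 0.0751 to 0.561 CPM (median 0.175) at 8 weeks. Its log2FC was −2.95 ± 0.23 (FDR 9.6e-13), and its ages did not overlap between P6 and 8 weeks. Cdkn2b, its neighbour, did not pass (0.40 ± 0.29, FDR 0.21).

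The sexes were not used to choose the genes and were compared within each age. No member passed an FDR of 0.05 between males and females at P6, P15 or 8 weeks (edgeR), where 0.0511%, 0.0681% and 0.114% of all genes did. At an unadjusted p under 0.05 there were 1, 3 and 0 members, beside 7.1%, 18.2% and 2.94% of all genes, and limma-voom and DESeq2 called 0 as well. The 3 at P15 were Ezh2, Suz12 and Bmi1, all lower in males, with log2FC of −0.49 ± 0.15 (SE, FDR 0.25), −0.48 ± 0.22 (FDR 0.26) and −0.47 ± 0.21 (FDR 0.26). P15 male 1 was the lowest P15 mouse for all 3. Without it Suz12 (−0.29 ± 0.18) and Bmi1 (−0.34 ± 0.21) were no longer under 0.05, and the 2 members that were, beside 10.6% of all genes, were Ezh2 (−0.38 ± 0.15, FDR 0.45) and Ezh1 (0.24 ± 0.10, FDR 0.45). Ezh2 was 15.4 to 26.2 CPM in the 6 females and 9.89 to 16.8 CPM in the 6 males, and the sexes overlapped. Phc1 was the 1 member at P6, with a log2FC of −0.29 ± 0.11 in males (FDR 0.70). The difference of the sex effects at 8 weeks and P6 passed for no gene (0% of all genes, and 0 members at an unadjusted p under 0.05, beside 5.1% of all genes).

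The paralog ratios were set between the sexes in 6 comparisons. The largest was Ezh2 to Ezh1 at P15, with a mean log2 ratio of −1.87 in 6 males and −1.26 in 6 females (two-sided exact permutation p = 0.024, adjusted p = 0.14 over 6 comparisons), which did not pass. Without P15 male 1 the difference was −0.59 (exact permutation p = 0.048, unadjusted), against −0.61 with it. The other 5 had adjusted p values of 0.61 or more by the exact permutation test. At 8 weeks the sexes differed by −0.22 for Ezh2 to Ezh1 and by 0.04 for Cbx2 to Cbx7.

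Among the 43 other Polycomb genes, Kdm6a alone was called between the sexes, and at P15 only. Kdm6a is X-linked and known to escape X inactivation. Its levels were 40.2 to 65.02 CPM in females (median 58.1) and 10.7 to 29.0 CPM in males (median 25.0) at P15, without overlap, with a log2FC of −1.22 ± 0.20 (SE, FDR 0.0024). At P6 females had 28.0 to 37.7 CPM and males 21.98 to 35.2 CPM (log2FC −0.22, FDR 0.79), and at 8 weeks females had 40.6 to 76.8 CPM and males 19.1 to 49.8 CPM (log2FC −0.76, FDR 0.23). Its sex effect was set between 8 weeks and P6 (log2FC −0.55, FDR 0.86) and was not tested between P15 and the other ages. The call at P15 held in 14 of 14 fits, with FDR from 1.4e-05 to 0.012.

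Mice of the same age and sex differed from each other, and the subunits varied together in 2 blocks. After subtracting the mean of each age and sex group, Ezh2 went with Bmi1 (Pearson r = 0.87 over 34 mice), Suz12 (0.79) and Eed (0.58), and Suz12 with Eed (0.89) and Bmi1 (0.83). Cbx2 went with Phc1 (0.78) and not with Ezh2 (0.01), its companion in the fall with age. Ezh1 and Cbx7, which both rose with age, had r = 0.55, and Ring1 ran against Bmi1 (−0.65) and Ezh2 (−0.61). Without P15 male 1 these values were 0.85, 0.77, 0.50, 0.81, 0.84, 0.73, 0.21, 0.40, −0.66 and −0.62 in the same order. These correlations are a description and carry no test. Their points share the library, its depth and its scaling.

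**Figure D4:**
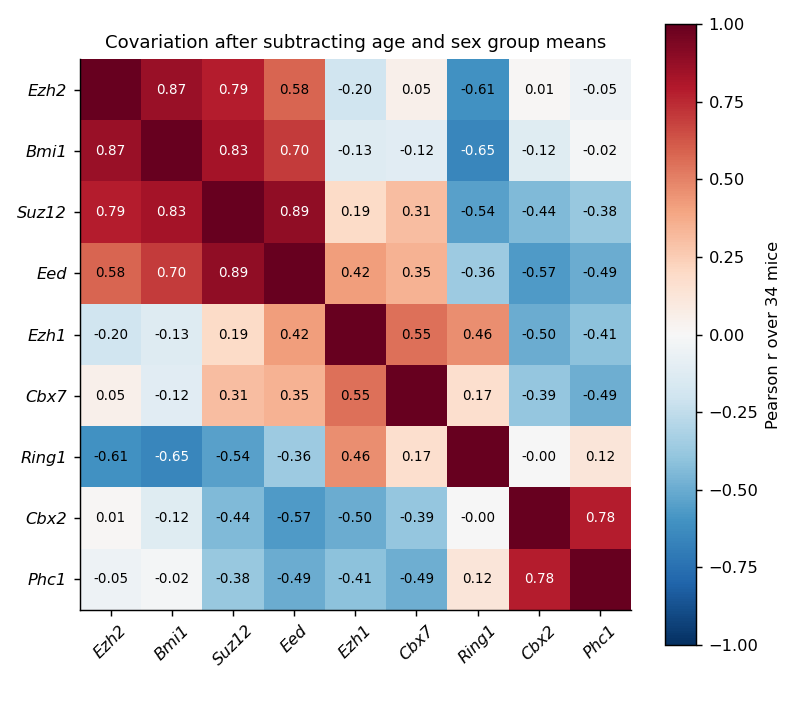
Pearson r (colour and number) between the log2 CPM of each pair of the 9 subunits over 34 mice, after subtracting the mean of the age and sex group. Ezh2, Bmi1, Suz12 and Eed form a block of positive values from 0.58 to 0.89, and Cbx2 and Phc1 form another at 0.78.

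The mitochondrial share of counts, corrected for group means in the same way, had r = 0.67 with Bmi1, 0.60 with Suz12, 0.58 with Ezh2, 0.43 with Eed and −0.69 with Ring1 over 34 mice (0.63, 0.55, 0.53, 0.32 and −0.69 without P15 male 1). For Ezh1 it was −0.34 (−0.58 without that mouse), for Cbx7 −0.19 (−0.43), for Cbx2 −0.21 (−0.09) and for Phc1 −0.17 (−0.06). P15 male 1 had the lowest P15 level of Ezh2 (9.89 CPM), Suz12 (15.5 CPM), Eed (13.4 CPM) and Bmi1 (16.6 CPM) and the highest of Cbx2 (10.4 CPM) and Phc1 (48.7 CPM). Its share of mitochondrial counts was 0.796%, the lowest of the 34 mice, and its neural marker level of 1538 CPM was the highest at P15. Mouse 8-week male 4 had the lowest 8-week level of Ezh2 (4.88 CPM), Suz12 (26.2 CPM), Eed (27.1 CPM) and Bmi1 (24.8 CPM), and its mitochondrial share of 0.882% was the lowest at 8 weeks. The part of RNA quality in these values was not tested.

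Genes most like each paralog were ranked by the same correlation, among genes with a mean log2 CPM of at least 3. For Ezh2 they were Rfx7, Ptpn12, Taf2, Cpsf6 and Tia1 (r from 0.90 to 0.92), and for Ezh1 Mapk14, Pacsin2, Bid, Lmo2 and Smap2 (0.88 to 0.92). Those of Cbx2 were Ptprs, Mum1, Ltbp3, Bcar1 and Arhgef7 (0.83 to 0.86), and those of Cbx7 were Tmem44, Acss1, Ppfibp2, Glb1l and the antisense gene Gm26982 (0.73 to 0.79). Without P15 male 1 the same genes had r of 0.89 to 0.90 for Ezh2, 0.86 to 0.89 for Ezh1, 0.78 to 0.84 for Cbx2 and 0.62 to 0.73 for Cbx7. The 4 lists shared no gene, and none of the 5 for Ezh2 was in the dividing-cell list. Lists this short, drawn from so many genes, would seldom meet, so nothing follows from either.

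Within an age, the 9 subunits were set against the dividing-cell level and the neural level of the same mice, 54 relations in all (log2 CPM of the subunit against summed CPM, 100000 permutations, two-sided, Benjamini-Hochberg over 54). By Pearson r, 3 relations with the dividing-cell level and 5 with the neural level passed an adjusted p of 0.05. By Spearman rho, Ezh1 with the neural level and Cbx2 with the dividing-cell level at P15 alone passed (adjusted permutation p = 0.0289 for each). Ezh2 did not pass against the dividing-cell level at any age. At P6 it had r = 0.60 (adjusted p = 0.17, n = 10 mice, permutation test), and r = 0.77 once P6 female 6 was included (adjusted permutation p = 0.042), so that the pass rests on that mouse. Suz12 passed there with r = 0.82 (rho 0.83, permutation p = 0.0043, adjusted 0.039, and 0.87 without the 2 mice farthest from the median), but rho did not pass (adjusted permutation p = 0.063). The call on r was lost with the mean of log2 CPM as the level (r = 0.81, adjusted permutation p = 0.056) and when P15 male 1 was left out of the family of tests (adjusted permutation p = 0.057).

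At P15 Ezh1 ran against the neural level, with r = −0.87 and rho = −0.86 over 12 mice (permutation p = 0.00025, adjusted 0.0067, and 0.0289 for rho). It was 76.9 CPM in the mouse with the lowest neural level of 214 CPM and 42.6 CPM in the mouse with the highest of 1538 CPM. The relation kept r = −0.78 without the 2 mice farthest from the median, r = −0.85 without P15 male 1 (adjusted permutation p = 0.030) and r = −0.87 with sex means subtracted (adjusted permutation p = 0.020). Cbx2 at P15 had r = −0.84 with the dividing-cell level (rho −0.85, permutation p = 0.00024, adjusted 0.0067, and −0.68 without the 2 farthest mice). Without P15 male 1 it was −0.76 and no longer passed (adjusted permutation p = 0.071), and with the mean of log2 CPM as the level it was −0.71 and did not pass either (adjusted permutation p = 0.057).

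At P6 Phc1 went with the neural level, with r = 0.91 over 10 mice (permutation p = 0.00065, adjusted 0.0117), but rho = 0.67 did not pass (adjusted permutation p = 0.20). Its r was 0.76 without the 2 mice farthest from the median. The relation lay between 2 sets of mice: 4 males with a neural level up to 1863 CPM had 42.1 to 50.3 CPM of Phc1, and 6 mice from 2278 CPM upwards had 58.9 to 72.4 CPM. Inside the 6, at 2278 to 2902 CPM, the r was −0.17, so that the r over all 10 draws on the difference between the sets. The split follows the gap in these data. Over so narrow a range, 6 mice can show neither a relation within the set nor its absence. All 4 females were among the 6, and with the mean of each sex subtracted and mice permuted within a sex the r was 0.88 but did not pass (adjusted permutation p = 0.085). The same 4 males had 7.98 to 11.5 CPM of Cbx2 against 13.2 to 19.0 CPM in the 6, with r = 0.84 over all 10 (rho 0.66, permutation p = 0.0043, adjusted 0.039, 0.81 without the 2 farthest) and −0.09 inside the 6. Cbx7 at P6 had r = −0.74 with the neural level (rho −0.72, permutation p = 0.0068, adjusted 0.046, −0.55 without the 2 farthest and −0.77 inside the 6). Both of these P6 calls were lost with the mean of log2 CPM as the level (adjusted permutation p = 0.057 for Cbx2 and 0.0997 for Cbx7), with P6 female 6 included (0.13 and 0.31) and with sex means subtracted (0.13 and 0.054). They were also lost when P15 male 1 was left out of the family of tests (0.057 and 0.071), which leaves r at P6 unchanged. Eed with the dividing-cell level and Cbx2 with the neural level at P15 had r = 0.67 and 0.77 (rho 0.74 and 0.76, permutation p = 0.0057 and 0.0032, adjusted 0.044 and 0.039), which fell to 0.26 and 0.58 without the 2 farthest mice. Both calls were lost without P15 male 1 (adjusted p = 0.35 and 0.24, permutation test) and with the mean of log2 CPM as the level (0.11 and 0.13), and that of Eed also with P6 female 6 included (0.13) and with sex means subtracted (0.099). By rho, the P6 relations of Cbx2 and Cbx7 did not pass (adjusted permutation p = 0.20 and 0.16). Nor did these relations of Eed and Cbx2 at P15 (0.068 and 0.065).

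**Figure D5:**
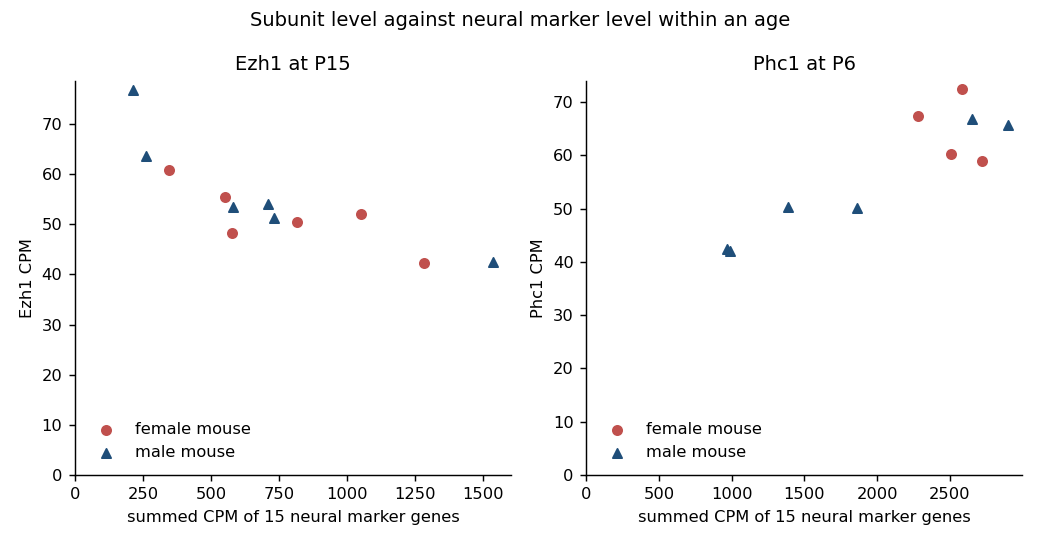
Ezh1 at P15 (left, 12 mice) and Phc1 at P6 (right, 10 mice) in CPM (y axes, from 0) against the summed CPM of 15 neural marker genes (x axes, from 0), with circles for females and triangles for males. Ezh1 falls from 76.9 to 42.6 CPM along the axis, and Phc1 lies in 2 sets, 4 males at 42.1 to 50.3 CPM and 6 mice at 58.9 to 72.4 CPM.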

How the data were processed

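The mRNA of CD45+ve microglia from 35 mice was sequenced by the authors as directional paired-end libraries, 1 per mouse. The authors used STAR 2.7.3 for alignment to the GRCm38/mm10 genome and featureCounts (Subread 2.0.0), set for reverse-stranded pairs, for counting. The deposited values are raw counts, neither filtered nor normalised. All 35 columns were assigned by their titles, and genes were named from GENCODE M21, which may not be the authors' annotation release (55141 of 55401 identifiers had a name). The union of exons gave gene lengths. Floors (3 counts) cover counting error alone, since PCR copies were not told apart from separate molecules here.

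Mice were grouped by labelled age and sex. The 34 mice without P6 female 6 formed the main set. A gene was kept if 5 or more mice reached 0.5 CPM. After TMM scaling, edgeR 4.0.16 (R 4.3.3) fitted a robust quasi-likelihood model with a mean for every combination of age and sex. The threshold was a Benjamini-Hochberg FDR below 0.05 over 17612 genes, and glmTreat added a 2-fold threshold. Age contrasts average the sexes. Levels are TMM-scaled CPM, RPKM divides them by exon length, log2 CPM uses a prior count of 2, and ratios add 0.5 to each count. No random effect for the animal was included, because there is 1 library per mouse. Alternatives were limma-voom (limma 3.58.1), DESeq2 1.42.0, other scalings, filters, designs and mice. Correlations were tested with 100000 permutations (numpy 2.4.6, scipy 1.17.1). Scripts were tested on simulated data.

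The members and the gene lists were chosen with earlier results of these data known. Named genes were the members, the paralogs of their complexes, Rbbp4, Rbbp7, Jarid2, Kdm6a, Kdm6b, the HP1 chromobox genes, list genes past 2-fold, the 3 largest changes of each list, the genes most like each paralog and Polycomb genes called between sexes. Lcor, Aebp2, Mtf2, Epop and Cdkn2b were named outside this rule, to account for their lists. A gene counted in these lists is not reported here. Promoter windows are RefSeq's on GRCm38.p6, with entries for 8 of the 9 members.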

Additional observations from a re-analysis of the deposited data

Results flagged for a closer look

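Dixon's test of the highest and lowest mouse was applied to 66 groups of 4 to 6 mice, where chance flags about 1 in 20, and 6 were outlying. Of these, 3 came from P15 male 1 against the other 5 P15 males: Suz12 at 15.5 CPM (others 38.8 to 52.2 CPM), Eed at 13.4 CPM (others 29.0 to 36.3 CPM) and Phc1 at 48.7 CPM (others 35.004 to 39.0 CPM). Ring1 was 50.8 CPM in 8-week female 5, above 41.6 to 43.6 CPM in the other 8-week females. Cbx7 was 18.5 CPM in P15 female 3, above 15.6 to 16.3 CPM in the other P15 females. The log2 ratio of Ezh2 to Ezh1 was 1.02 in P6 female 5, below 1.31 to 1.33 in the other P6 females.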

How the results depend on the processing

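Direction and call of the age and sex results were recomputed under the alternatives. Past the 2-fold threshold, the counts of other Polycomb genes were 1 higher and 6 lower (8 weeks against P6), 0 and 6 (P15 against P6) and 0 and 1 (8 weeks against P15), fewer by construction. Against 11 higher at 8 weeks than at P15, 7 were called without a filter, where 35496 genes were tested, and 7 with age without sex, whose cause was not tested. With the length of the longest transcript the log2 ratio of Ezh2 to Ezh1 was 1.70 at P6 and −2.67 at 8 weeks. The male against female difference of Ezh2 to Ezh1 at P6, never called, reversed without P6 female 5 (−0.041, exact permutation p = 0.93), with a range of −0.041 to 0.065 over the P6 females left out, and that of Cbx2 to Cbx7 at P15 reversed without P15 male 1 (−0.059, exact permutation p = 0.82), against at most 0.21 in the other fits. Leaving out P15 male 1 was decided once its values were known. By Pearson r, the relations that passed numbered 2 positive and 1 negative with the dividing-cell level and 3 and 2 with the neural level. With the mean of log2 CPM as the level, and again without P15 male 1, they were 0 and 0, and 1 and 1. With all 35 mice they were 3 and 1, and 2 and 1, and with sex means subtracted, a later choice, 2 and 1, and 1 and 1, where Eed at P15 left the positive dividing-cell relations and Ezh1 at P15 joined them (r = 0.77, adjusted permutation p = 0.0499, against r = 0.57 and 0.15). Ring1's log2FC moved to 0.66 (8 weeks against P6) and 0.42 (P15 against P6) under library size scaling.

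Replicate numbers did not pair the mice: same-numbered mice of other groups had a median correlation of 0.033 (−0.54 to 0.69), and 2 of 34 mice correlated best with their own number. With the replicate block the counts were 11 higher and 21 lower (8 weeks against P6), 8 and 19, and 11 and 16, and Kdm6a at P15 was again the 1 gene called between sexes.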
